A study of Mus musculus with 22 samples.

Results

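The constitutive proteasome subunits are the gene products that build the standard proteasome of every cell. They were taken here as all genes whose single annotated symbol is Psma, Psmb, Psmc or Psmd followed by a number, without the inducible subunits Psmb8, Psmb9 and Psmb10. The rule found 36 of the 18193 genes that had a single symbol on the array, and it used no measured value. Each gene was read through its probe set with the highest mean. The members comprised 7 alpha ring and 7 beta ring genes of the core particle, 6 ATPase and 11 non-ATPase genes of the regulatory particle, 3 chaperones of regulatory particle assembly, and the subunits Psma8 of testis and Psmb11 of thymus.

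RNA was measured on 22 Affymetrix whole-genome mouse arrays, all from male C57BL/6 mice. Of these, 14 held cultured smooth muscle cells that had been dispersed from the suprarenal aorta of tenascin C knockout (TNC-KO) mice, so every cell group lacked endogenous TNC, a matrix protein of stressed tissue. The 4 cell groups were unstimulated (n = 3), stimulated with tumour necrosis factor (TNF) at 10 ng/mL (n = 3), given exogenous TNC at 10 µg/mL (n = 4), or given both at these doses (n = 4). The series text calls these independent cultures and puts TNF stimulation at 24 h. The hours in the sample labels run from 23 to 36, 1 h more for each array, and enter no fit. Arrays with TNC alone have titles that read "TNC or TNF", and the treatment label, exogenous TNC, was followed. The other 8 arrays held pooled aortic RNA, with a single array per condition: wild type or TNC-KO, suprarenal or infrarenal, untreated or treated. Untreated pools came from 5 mice and treated pools from 8. Treatment (Ca+AngII) was 0.5 M CaCl2 laid around the infrarenal aorta plus infusion of angiotensin II at 1 µg/min/kg for 1 week.

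The proteasome degrades proteins that carry ubiquitin chains. Its core particle is a barrel of outer alpha rings, which gate the entrance, and inner beta rings, which hold the cutting sites of Psmb5, Psmb6 and Psmb7. The regulatory particle caps the barrel: its ring of Psmc ATPases unfolds substrates and threads them in, and its Psmd subunits bind and remove ubiquitin. In inflamed cells Psmb8, Psmb9 and Psmb10 take the places of Psmb5, Psmb6 and Psmb7 in newly built cores, which gives the immunoproteasome. The transcription factor Nfe2l1 is known to raise constitutive subunit genes together when proteasome activity is short, through antioxidant response elements in their promoters.

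Because many members moved together in the cells, their promoters were searched. RefSeq promoter windows of 300 bases (250 before the start and 50 after it, build GRCm38.p6) were at hand for 29 of the 36 members, without Psma8, Psmb1, Psmb2, Psmb7, Psmc3, Psmd3 and Psmd7. The antioxidant response element core TGACNNNGC, on either strand, was found in 5 of the 29 (17.2%) and in 14% of 27025 gene promoters. The CCAAT box, read as CCAAT on either strand, was found in 12 (41.4%, against 41.1% of all), the core of interferon response elements (GAAA, any 2 bases, GAAA) in 3 (10.3%, against 3.99%), and a kappaB pattern (GGGA, any base, TTTCC) in 0 (against 0.466%). A match describes letters, not a bound site. The 5 members with the antioxidant core were Psmb5, Psmb6, Psmc6, Psmd9 and Psmd12. The 100 bases before the start of 5 members are printed 5′ to 3′ along each gene, with antioxidant cores and CCAAT boxes (either strand) in capitals. Psmb5 and Psmb6 are shown as catalytic subunits with an antioxidant core. Psma5 and Psma7 are shown because their responses to TNF and TNC, given further on, were among the largest, and they hold neither pattern in these 100 bases. Psmd10 is shown because its response stood apart from the others, and it holds the CCAAT box at 2 places. The windows are chr14:54617996-54618095 (minus strand) for Psmb5, chr11:70525257-70525356 (plus) for Psmb6, chr3:108256826-108256925 (plus) for Psma5, chr2:180042465-180042564 (minus) for Psma7 and chrX:140956712-140956811 (minus) for Psmd10.
Psmb5: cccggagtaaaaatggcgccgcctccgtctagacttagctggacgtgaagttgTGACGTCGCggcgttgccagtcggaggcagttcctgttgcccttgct
Psmb6: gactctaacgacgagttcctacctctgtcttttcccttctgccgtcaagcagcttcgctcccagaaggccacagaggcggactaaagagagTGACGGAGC
Psma5: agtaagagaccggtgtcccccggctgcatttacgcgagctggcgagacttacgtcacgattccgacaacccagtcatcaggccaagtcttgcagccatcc
Psma7: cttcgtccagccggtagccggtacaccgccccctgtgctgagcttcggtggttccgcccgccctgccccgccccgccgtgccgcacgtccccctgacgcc
Psmd10: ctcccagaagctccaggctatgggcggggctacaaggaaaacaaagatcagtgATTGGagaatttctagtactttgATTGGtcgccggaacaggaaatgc

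Values are the deposited signals, in arbitrary units scaled alike on every array (the trimmed mean over the middle 96% of probe sets was 499.8 to 499.9). In the cells all 36 members entered the fit across 15534 genes, but Psma8 and Psmb11 lay near background and reached the 30th percentile of all probe sets on 8 and 9 of the 14 arrays. The other 34 reached it on all 14. Members varied little between arrays of a group: the median SD was 0.06 on the log2 scale, against 0.15 over all tested genes. These sets were not matched for brightness: the 34 brighter members read 602 or more, where the medians of the cell arrays were 51.0 to 64.6. The summed signal of 8 smooth muscle genes was 40230 to 41800 in unstimulated cells, 32097 to 35270 with TNC, 23622 to 25677 with TNF and 24044 to 27178 with both. The sum over 6 fibroblast genes went the other way, from 16212 to 17265 in unstimulated cells to 27043 to 28864 with TNF, 29444 to 31556 with TNC and 29896 to 33865 with both. Not all 6 followed it: at adjusted p under 0.05 (limma), 4 were higher and 2 lower with both, beside 20.7% and 22.5% of all genes. With TNF alone 2 were higher and 0 lower (14.3% and 20.3% of all genes), and with TNC alone 4 and 0 (16.1% and 15.7%). The sum over 6 endothelial genes was 16061 to 21274 over all cell arrays. The summed signal of 8 macrophage genes was low but higher with TNC, at 846 to 1203 in unstimulated cells, 946 to 978 with TNF, 2089 to 3131 with TNC and 2240 to 2371 with both. Of the 7 that passed the filter, 2 were called higher and 0 lower with TNC alone, and 3 and 0 with both. With TNC on TNF 3 were higher and 1 lower (-1.23), beside 16.3% and 11.9% of all genes. The sum over 5 fat genes was 5237 to 7189 in unstimulated cells and 6863 to 8460 with TNC, but 1401 to 1599 with TNF and 1845 to 2371 with both. Only 2 of these genes passed the filter, and 1 reached the 30th percentile on all 14 arrays. With TNC alone the 2 went opposite ways, 1 called lower (-2.71) and the other at 0.24. With TNF alone 1 was called lower and 0 higher, and with both 2 and 0. The sum over 5 genes of cycling cells was 1979 to 3227 in unstimulated cells, 1944 to 2045 with TNF, 1222 to 1586 with TNC and 1342 to 1920 with both. The part of these shifts in the results that follow was not tested.

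With TNF alone, most genes of the constitutive proteasome were higher, by a modest amount. TNF without TNC raised 29 of the 36 members and lowered 0 (limma, Benjamini-Hochberg adjusted p under 0.05 over all tested genes). Before adjustment, 30 were higher and 0 lower at p under 0.05. In that comparison 14.3% of all genes were called higher and 20.3% lower. The median member changed by 0.32 on the log2 scale, and the median gene by -0.06. Without the genes dimmer than all but a few members, 3491 genes remained. Of these 25% were called higher and 24.7% lower, with a median of 0.00. All 14 core genes rose (median 0.34), as did 14 of 17 regulatory particle genes (median 0.32) and 1 of 3 chaperones.

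In the alpha ring all 7 genes rose (median 0.43), and the largest rises of core genes were there. Psma6 read 7697, 7513 and 7870 in unstimulated cells and 11991, 11980 and 12700 with TNF. The groups do not overlap, as for 50% of all tested genes, and the change was 0.67 (SE 0.08, adjusted p = 4.28e-05). Psma6 was read by a probe set that may also read related sequences, but another bright probe set of the gene gave 0.67 as well. Psma7 read 4512, 4377 and 4547 without and 6888, 6761 and 6639 with TNF, a change of 0.59 (SE 0.07, adjusted p = 4.07e-05). Psma5 went from 6295, 6246 and 7241 to 9711, 10091 and 9735, a change of 0.58 (SE 0.10, adjusted p = 7.55e-04). For each of the 3, every array with TNF alone lay above every other cell array. The remaining alpha genes rose by 0.29 (Psma1) to 0.43 (Psma4).

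The beta ring rose less, with all 7 genes called and a median of 0.28. Of its catalytic genes, Psmb5 carries the chymotrypsin-like site, Psmb6 the caspase-like site and Psmb7 the trypsin-like site. Psmb6 read 3615, 3557 and 3610 in unstimulated cells and 4426, 4169 and 4118 with TNF, a change of 0.24 (SE 0.05, adjusted p = 0.00459). Psmb7 read 1622, 1660 and 1499 without and 2008, 2060 and 1881 with TNF, a change of 0.32 (SE 0.10, adjusted p = 0.0261). Psmb5 read 4351, 4048 and 4343 without and 5026, 4792 and 4822 with TNF, a change of 0.20 (SE 0.06, adjusted p = 0.0144). The arrays of the groups do not overlap for any of the 3 catalytic genes, as for 50% of all tested genes in this comparison. Their changes were smaller than those of Psma5, Psma6 and Psma7. Among the structural beta genes Psmb4 changed by 0.36 and Psmb3 by 0.32, and Psmb1 had the smallest called rise of all members, 0.14.

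In the regulatory particle 5 of 6 ATPases rose, led by Psmc6 (0.42, SE 0.05) and Psmc3 (0.34). The exception was Psmc4, at 0.00 (95% interval -0.28 to 0.29). Of the non-ATPases 9 of 11 rose. The largest were Psmd11 (0.48, SE 0.09) and Psmd3 (0.44, SE 0.10), scaffold subunits of the lid. Psmd1 and Psmd2, the large scaffold subunits of the base, changed by 0.32 and 0.31, and Psmd14, the deubiquitinating enzyme of the lid, by 0.26. Psmd4, a ubiquitin receptor, changed by 0.05 (95% interval -0.12 to 0.22) and Psmd6, another lid subunit, by -0.14 (-0.29 to 0.02), neither past the threshold. For Psmc4 and Psmd4 the reading depended on the probe set: a dimmer but detected one gave 0.38 for Psmc4 and 0.33 for Psmd4. That of Psmd6 gave 0.01. The dimmer probe sets of Psmc6, detected on all 14 cell arrays, gave 0.12 and 0.13 in place of 0.42. Over the 24 other probe sets of members that were detected on all 14 cell arrays, 17 had a positive change.

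Psmd10, also known as gankyrin, stood apart from the rest. It is a chaperone that binds an ATPase during assembly of the regulatory particle and is not part of the finished proteasome. It read 898, 921 and 959 in unstimulated cells, 2247, 2113, 2057 and 2180 with TNC, 3062, 2950 and 3057 with TNF, and 3880, 3357, 3357 and 3150 with both. No group overlaps another. TNF alone raised it 3.27-fold (log2 1.71, SE 0.07, adjusted p = 1.00e-08) and TNC alone 2.32-fold (log2 1.21, SE 0.07, adjusted p = 1.63e-07). It had the largest change of any member under TNF alone and the largest range over the group means, 1.89 on the log2 scale. Psmd5 had the smallest, 0.10. The chaperones Psmd5 (0.01) and Psmd9 (0.11) did not pass the threshold with TNF. Psmd10 has 1 probe set on the array, so no other reading of it was at hand.

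**Figure D1:**
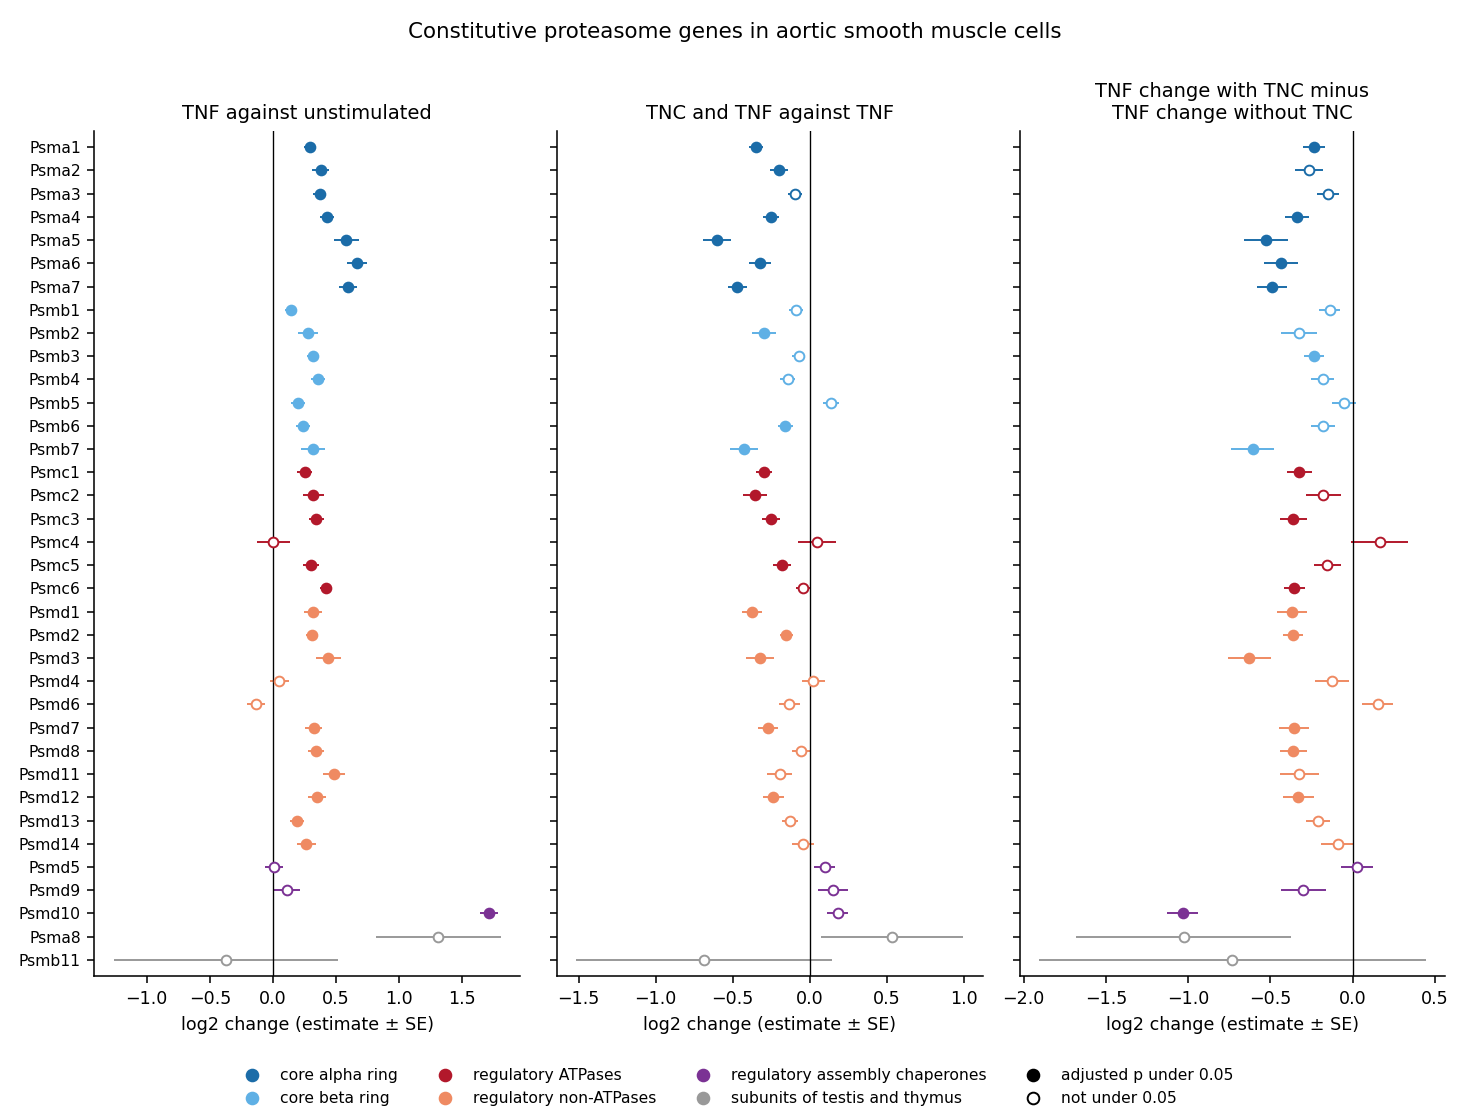
Log2 change (estimate ± SE of the limma fit) of the 36 members in 3 comparisons of the cells, in rows by role; filled points have an adjusted p under 0.05. Nearly all core and regulatory genes lie right of 0 with TNF and left of 0 in the other panels, on the deposited scale, with Psmd10 far to the right with TNF (1.71) and Psma8 and Psmb11, near background, with wide errors.

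The count of rises rested on how probe sets were combined: with the mean over all probe sets of a gene, dim ones included, 17 members were called. Under that choice Psmb1 (-0.13), Psmc2 (-0.11), Psmd13 (-0.25) and Psmd2 (-0.03) changed sign. With each array centred on its median, which moves all genes of this comparison up by 0.11, 30 members were called higher and 0 lower, or 29 without Psma8, which lies near background (all genes: 2620 higher and 1941 lower, against 2214 and 3156 as deposited). The median member lay 0.38 above the median gene. Leaving out 1 array at a time kept 23 of the 29 calls throughout. The 6 that lost their call at least once were Psmb1, Psmb2, Psmb5, Psmb7, Psmd13 and Psmd14. Psmb5 lost it without the second unstimulated or the first TNF array (highest adjusted p = 0.061), and Psmb7 without the first or the third unstimulated or the first or second TNF array (highest adjusted p = 0.0928).

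The same TNF stimulation in cells that had received TNC left most members uncalled. TNF with TNC raised 5 members and lowered 1, while 9.6% of all genes were called higher and 12.5% lower. Of the 3491 genes as bright as most members, 18.7% were called higher and 17.5% lower. The median member changed by 0.05 and the median gene by -0.01. The 5 were Psmd10 (0.67), Psma6 (0.23), Psma3 (0.22), Psmb4 (0.17) and Psmb5 (0.15). The 1 that fell was Psmb7, which read 2113, 1808, 1578 and 1771 with TNC and 1605, 1487, 1455 and 1368 with both. Those groups overlap, and the change was -0.29 (SE 0.08, adjusted p = 0.0289). None of the 17 regulatory particle genes was called (limma, adjusted p under 0.05), and their median change was -0.02. At an unadjusted p under 0.05, 2 of them were higher and 1 lower. Psma5 (0.05, 95% interval -0.13 to 0.24) and Psma7 (0.10, -0.03 to 0.24) did not pass the threshold here. These counts are small and unsteady: without the fourth array of the TNC group 2 members were called, and without the fourth of the group with both factors 3. Psmd10 and Psma3 kept their call in every fit that left out 1 array, while Psma6, Psmb4, Psmb5 and Psmb7 did not (highest adjusted p 0.0723, 0.0502, 0.108 and 0.0768).

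The difference between these TNF responses was tested directly as an interaction. In 17 members the TNF response was lower with TNC than without it, and in 0 it was higher, against 9.01% and 9.81% of all genes. Without adjustment these counts were 26 and 0. Of the 3491 genes as bright as most members, 16% were called lower and 13.2% higher by this test. The median member differed by -0.32 and the median gene by 0.04. By role the 17 members were 5 of 7 alpha ring genes, 2 of 7 beta ring genes, 3 of 6 ATPases, 6 of 11 non-ATPases and Psmd10. Among the 17, Psmd10 had the largest difference, -1.03 (SE 0.09, adjusted p = 2.25e-05), followed by Psmd3 at -0.63 (SE 0.13, adjusted p = 0.00634) and Psmb7 at -0.61 (SE 0.13, adjusted p = 0.00693). Psma5 differed by -0.53, Psma7 by -0.49 and Psma6 by -0.44. For Psmb5 the difference was -0.05 (95% interval -0.21 to 0.11), which did not pass the threshold. Leaving out 1 array at a time kept 13 of the 17 calls, and Psma1, Psmb3, Psmd7 and Psmd12 lost theirs at least once. The interaction count was 14 with arrays centred on the median and 9 with the mean over all probe sets, where Psmc1 (0.68) and Psmd2 (0.49) changed sign.

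Read the other way, TNC lowered members in the presence of TNF. TNC with TNF, against TNF alone, lowered 18 members and raised 0, where 11.9% of all genes were called lower and 16.3% higher. Unadjusted, 21 were lower and 2 higher. Of the 3491 genes as bright as most members, 18% were called lower and 25.4% higher. The median member changed by -0.17 and the median gene by 0.00. Among the 18 lower members were 6 of 7 alpha ring genes, 3 of 7 beta ring genes, 4 of 6 ATPases and 5 of 11 non-ATPases. Psma5 read 9711, 10091 and 9735 with TNF and 5707, 7395, 6793 and 6167 with both. Every array with both lay lower, in a comparison where the groups do not overlap for 36% of all tested genes. The change of Psma5 was -0.60 (SE 0.09, adjusted p = 6.54e-04). Psma7 read 6888, 6761 and 6639 with TNF against 4807, 5065, 5111 and 4577 with both, a change of -0.47 (SE 0.06, adjusted p = 2.96e-04). Psmb7 changed by -0.42 (SE 0.09, adjusted p = 0.00507) and Psmd1 by -0.37 (SE 0.06, adjusted p = 0.00133). In all, 7 members had positive estimates, and 0 of them passed the threshold. They were the 3 chaperones, Psmb5, Psmc4 (0.05), Psmd4 (0.02) and Psma8, which lies near background. Psmd10 was at 0.18 (SE 0.07, adjusted p = 0.0661) and Psmb5 at 0.14 (SE 0.05, adjusted p = 0.0721).

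This fall depended on the scaling. With arrays centred on their median, which shifts all genes up by 0.10 here, 3 members were called lower and 0 higher, and the median member was at -0.07 (all genes: 3030 higher and 1052 lower, against 2534 and 1853 as deposited). With quantile normalization 18 were lower and 2 higher. Relative to the median gene the median member lay at -0.17 as deposited, and centring all genes alike leaves that distance as it is. Of the 24 other detected probe sets of members, 22 had a negative change. With the mean over all probe sets 11 members were called, Psmc2 (0.10) and Psmd2 (0.62) changed sign, and with the arrays of TNF and of both factors fitted alone 11 were called. Leaving out 1 array at a time kept 12 of the 18 calls, and Psma2, Psmb6, Psmc5, Psmd2, Psmd3 and Psmd12 lost theirs at least once.

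TNC alone moved few of the core genes. Leaving aside Psma8, which passed the filter on low signals through treated arrays alone, TNC without TNF raised 8 members and lowered 1, where 16.1% of all genes were called higher and 15.7% lower. Of the 3491 genes as bright as most members, 27.3% were called higher and 19.9% lower, so members were not called more often than genes as bright. The median member changed by 0.08 and the median gene by -0.03. The rises were in the chaperones Psmd10 (1.21) and Psmd9 (0.45), the ATPase Psmc6 (0.31), the non-ATPases Psmd8 (0.30), Psmd3 (0.30) and Psmd2 (0.21), and the beta genes Psmb5 (0.19) and Psmb3 (0.16). Psmc6 read 4495, 4501 and 4761 in unstimulated cells and 5634, 5857, 5553 and 5688 with TNC (SE 0.05, adjusted p = 3.98e-04). Its groups do not overlap, as for 40.8% of all tested genes in this comparison. The 2 dimmer probe sets of Psmc6 gave negative changes, -0.23 and -0.37. Psmd6 was lower, at 6072, 6427 and 6071 without and 5105, 4584, 5428 and 5252 with TNC, a change of -0.28 (SE 0.07, adjusted p = 0.00757). Another probe set of Psmd6, about as bright, gave 0.02. None of the 7 alpha ring genes was called (limma, adjusted p under 0.05), and 1 was lower at an unadjusted p under 0.05. Psmb3, Psmb5 and Psmd3 lost their calls when single arrays were left out (highest adjusted p 0.0615, 0.0741 and 0.104). The count turned on scaling too: centring arrays on the median, a shift of 0.17 for all genes here, gave 18 higher and 0 lower (all genes: 3986 and 1246, against 2506 and 2435 as deposited).

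With both factors against none, and again without Psma8, 14 members were higher and 1 lower, beside 20.7% and 22.5% of all genes. Of the 3491 genes as bright as most members, 36.4% were called higher and 26.7% lower. The members' share of rises was thus near that of genes as bright. The median member changed by 0.12 and the median gene by -0.06. Core genes made up 7 of the 14, and Psmd10 rose 3.70-fold. The 1 lower member was Psmd6 (-0.27). Psma2, Psma4, Psmd9, Psmd11 and Psmd14 lost their calls when single arrays were left out (highest adjusted p 0.116, 0.0594, 0.119, 0.0608 and 0.0989). Psmb5 took a different course from the other catalytic genes: it read 5540, 5357, 4986 and 5582 with both factors, 4853, 4964, 4720 and 4814 with TNC, and, as given, 4792 to 5026 with TNF. It rose by 0.34 (SE 0.05, adjusted p = 2.56e-04) against unstimulated cells, whereas Psmb6 changed by 0.08 (95% interval -0.03 to 0.19) and Psmb7 by -0.11 (-0.31 to 0.09). Its level with both was the highest of the 4 groups, although 1 of those arrays lay below the highest array with TNF. Centring on the median, a shift of 0.21 for all genes, gave 24 members higher and 0 lower (all genes: 4790 and 1923, against 3217 and 3502 as deposited).

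**Figure D2:**
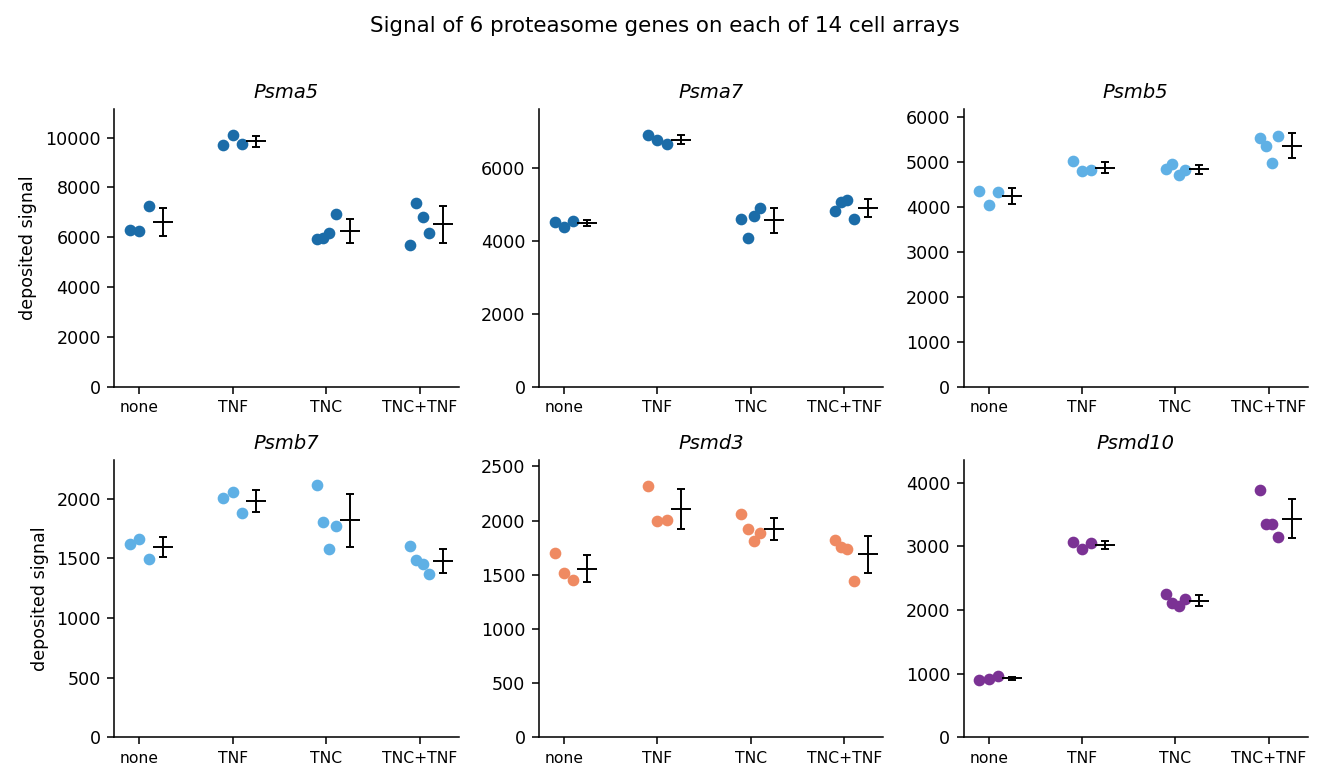
Deposited signal of 6 members on each of the 14 cell arrays (points), with the group mean and SD (bars), on axes that start at 0. Psma5 and Psma7 are high with TNF alone, Psmb5 is highest with both factors, and Psmd10 rises from unstimulated cells through TNC and TNF to both.

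In order of group means, TNF alone was the highest of the 4 cell groups for 27 of 36 members (75%), against 21.2% of all tested genes. That held for 13 of 14 core genes and 14 of 17 regulatory particle genes. For 19 members (52.8%) every array with TNF alone lay above all 11 other cell arrays, against 5.32% of all genes. The core particle had 11 of these and the regulatory particle 8. The other 3 groups lay close together: the mean over core genes, relative to unstimulated cells, was 0.06 ± 0.03 with TNC (SD, n = 4), 0.13 ± 0.04 with both (n = 4) and 0.37 ± 0.01 with TNF alone (n = 3). Over the regulatory particle it was 0.07 ± 0.01, 0.09 ± 0.03 and 0.27 ± 0.04. The gap between the core and the regulatory mean widened by 0.0999 ± 0.0252 with TNF, by 0.0357 ± 0.0189 with both, and moved by -0.0147 ± 0.0125 with TNC, where the unstimulated arrays varied with an SD of 0.0281. Without the third unstimulated array the gap with TNC was 0.000833. These gaps are descriptions, and no test was made of them.

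**Figure D3:**
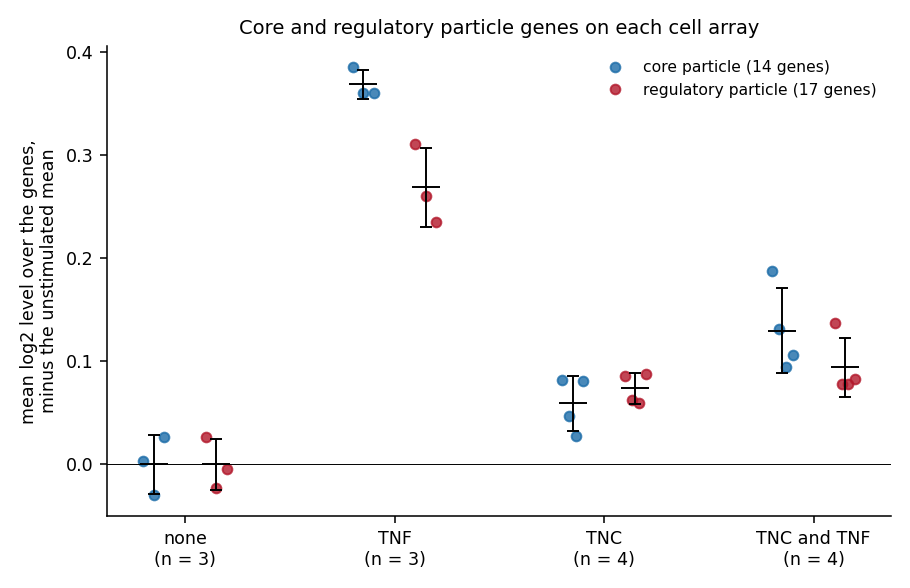
Mean log2 level over the 14 core genes (blue) and the 17 regulatory particle genes (red) on each cell array, minus the unstimulated mean; bars are group mean ± SD. With TNF alone the core arrays lie at 0.36 to 0.38 and the regulatory means at 0.24 to 0.31, above all arrays of the other groups.

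The inducible subunits, which the rule leaves out, moved far more and in the same directions. Psmb8 went from 399 to 499 in unstimulated cells to 8546 to 8855 with TNF and 2958 to 3448 with both, log2 changes of 4.28 with TNF alone and 2.07 with TNF on TNC. The interaction was -2.21 for Psmb8, -2.02 for Psmb9 and -1.67 for Psmb10. The largest of the 3 adjusted p-values, for Psmb9, was 1.55e-05. Psme1, a subunit of the activator that interferon induces, rose by 1.59 with TNF alone and by 0.89 with TNF on TNC. With TNF alone 14.3% of all genes were called higher and 20.3% lower. Of 4 genes for activators and the inhibitor, 2 rose with TNF alone and 0 fell. Of 5 core assembly chaperones outside the rule, 2 rose and 1 fell: Pomp, the maturation chaperone of the core, rose by 0.54 (SE 0.06) and Psmg4 by 1.33, while Psmg1 fell by 0.42.

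Genes that govern or serve the proteasome were mixed. The counts below for TNF alone stand beside 14.3% of all genes called higher and 20.3% lower. Of the transcription factors and their processing enzyme, Nfe2l1 rose by 0.63 with TNF alone (adjusted p = 2.56e-04), by 0.38 with TNC and by 0.71 with both. Its interaction, -0.30, did not pass the threshold (adjusted p = 0.115). Nfe2l2, which drives the oxidative response, rose by 0.66 with TNF alone, and Ngly1, which processes Nfe2l1, fell by 0.35. Of 7 ubiquitin receptors and deubiquitinases bound to the proteasome, 0 passed in either direction with TNF alone (limma; 1 higher and 1 lower at an unadjusted p under 0.05), among them Usp14 at -0.02 and Uchl5 at -0.05. Among 6 genes of the oxidative response 3 rose (Hmox1 0.68, Srxn1 0.63, Txnrd1 0.52) and 0 fell. Of 7 protein quality control genes 2 rose and 3 fell, with Sqstm1 at 0.47 and Hspb1 at -1.21. Of 4 extraction genes 1 rose (Nploc4, 0.63) and 2 fell, while Vcp, the segregase ATPase itself, was at 0.10. The ubiquitin-activating enzyme Uba6 was at -0.04.

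Psma8 and Psmb11, subunits of testis and thymus, served as members that these cells should hardly use. In the cells Psma8 signals ran from 4.87 to 42.0 and those of Psmb11 from 1.87 to 40.5, against 602 or more for every other member. Psma8 was below the 30th percentile on all 3 unstimulated arrays (4.87 to 18.5, where that percentile was 22.1 to 23.1) and at or above it on 1 of 3 arrays with TNF, 3 of 4 with TNC and 4 of 4 with both. It read 24.1 to 42.0 with both factors, and those arrays do not overlap the unstimulated ones, as for 47.4% of all tested genes. The fit called it higher with both factors (1.85, adjusted p = 0.00671), in every fit that left out 1 array, and with TNC (1.56, adjusted p = 0.0231), where groups overlap and single arrays ended the call (highest adjusted p 0.105). A gene that entered the fit through its treated arrays had to differ in these comparisons, so both calls are given as values and not counted. The interaction estimates of Psma8 (-1.03, SE 0.65) and Psmb11 (-0.73, SE 1.18) did not pass the threshold.

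In the aorta each condition was 1 pooled array, so values carry no replicate error and no test was made. Fewer cells of a type and less RNA per cell cannot be told apart in these pools. Of the members, 34 reached the 50th percentile of all probe sets on all 8 pools, and Psma8 and Psmb11 did so on 0. Shares of all genes are over the 12684 genes that reached it on at least 1 pool. Ca+AngII against untreated, in the 4 pairs of matched genotype and segment, gave 17 of the 34 members lower in every pair and 0 higher in every pair. The shares of all genes were 15% and 16.4%. Over the 10186 genes that reached the 50th percentile on all 8 pools they were 16.6% and 16.9%. The median of the members' mean log2 ratios was -0.15, and that of all genes 0.01. These shifts were small: 1 member in 1 pair, Psmd13 in the TNC-KO suprarenal pools, passed a fold of 1.5 lower, and 0 members passed it higher in any pair, where 5.31% and 5.31% (wild type and TNC-KO suprarenal) and 15.8% and 14.6% (infrarenal) of all genes passed it lower and 5.94%, 8.03%, 18% and 20.2% higher, in that order of pairs.

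The members that were lowest under Ca+AngII in all 4 pairs were Psmb3, Psmb7 and Psma5. Psmb7 read 1390 and 1106 in the wild type suprarenal pools (untreated, then treated), 1528 and 1275 in TNC-KO suprarenal, 1020 and 695 in wild type infrarenal, and 954 and 790 in TNC-KO infrarenal. Psma5 read 6424 and 5108, 6479 and 5561, 5825 and 4988, and 5405 and 3893 in the same order. The mean log2 ratios were -0.37 for Psmb3, -0.35 for Psmb7 and -0.31 for Psma5. Psmb5 had ratios of either sign, with a mean of 0.02, and Psmd10 a mean of 0.15 with 3 of 4 pairs positive. The median member by pair was -0.11 in wild type and -0.05 in TNC-KO suprarenal pools, and -0.23 and -0.18 in the infrarenal pools, where the CaCl2 had been applied. Core and regulatory genes did alike, with 8 of 14 and 9 of 17 lower in every pair. The 3 inducible subunits were lower with Ca+AngII in both suprarenal pairs and higher in both infrarenal pairs, with pair medians of 1.23 and 1.12 in the latter. The summed signal of 5 T and B lymphocyte genes moved the same way: in wild type and TNC-KO suprarenal pools it was 2764 and 3548.5 untreated and 414.5 and 468 treated, and in infrarenal pools 664 and 672 untreated and 1999.8 and 1274 treated. The part of lymphocytes in these values was not tested. With arrays centred on the median 10 of 34 members were lower in every pair, and 1 higher, beside 10.2% and 17.5% of all genes.

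The segments differed as well. Infrarenal against suprarenal, 19 of 34 members were lower in all 4 pairs and 0 higher, against 23.1% and 21% of all genes, with a median of -0.20 for members and 0.03 for all genes. Psmb7 had the lowest mean, -0.62, with all 4 ratios from -0.69 to -0.45. The ATPase Psmc5 followed at -0.53 (-0.76 to -0.37), then Psmc1 and Psmb5, each at -0.39. The counts for treatment, segment and genotype are not independent, since all 8 pools enter each of them. Genotype left less of a mark: TNC-KO against wild type, 4 of 34 members were higher in all 4 pairs and 0 lower, beside 4.83% and 6.87% of all genes. The 4 were Psma6, Psmc6, Psmd7 and Psmd14, with mean ratios of 0.07 to 0.11 (log2), and the median member was at 0.02. That median turned to -0.02 with arrays centred on the median. In that setting 0 members were higher and 1 lower in all 4 pairs, beside 2.32% and 7% of all genes. With the mean over all probe sets 3 were higher and 2 lower, beside 4.87% and 6.17%.

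**Figure D4:**
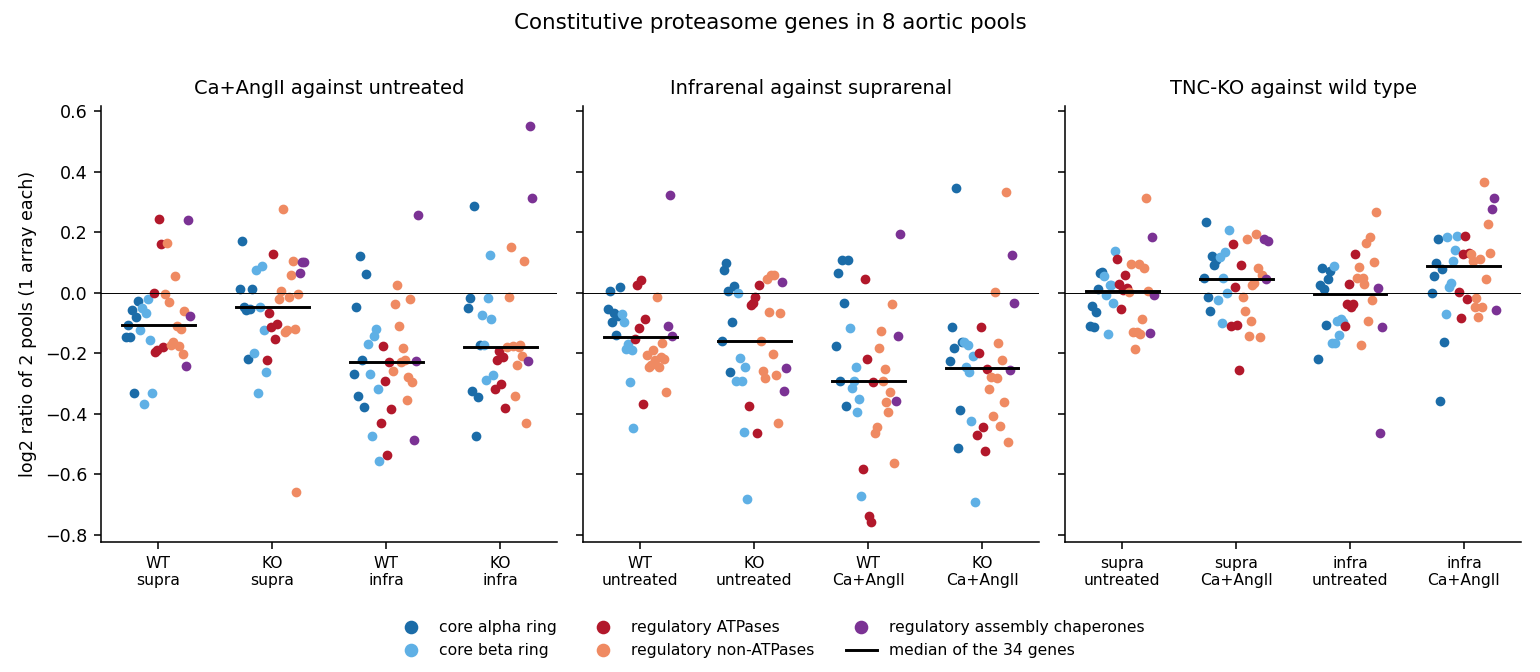
Log2 ratio of 2 aortic pools for each of the 34 members above the filter (points, coloured by role), in 4 pairs for each of 3 comparisons; bars are medians and no replicate error exists. Medians lie below 0 in all pairs for Ca+AngII and for segment, and between -0.01 and 0.09 for genotype.

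The tissue make-up of the pools differed along the same lines. The summed signal of 8 smooth muscle genes was 98447 (wild type) and 98957 (TNC-KO) in untreated infrarenal pools and 53006 and 60540 with Ca+AngII. That of 8 macrophage genes was 18024 and 15495 untreated and 49768 and 52568 treated. In suprarenal pools the smooth muscle sums were 80482 and 73178 untreated and 69425 and 64670 treated. Sums of 6 genes of adrenal cortex and sympathetic neurons were 30543 to 38592 in suprarenal and 4816 to 11902 in infrarenal pools. The sum of 5 neutrophil genes was 33672 in the treated TNC-KO suprarenal pool and 814 to 11627 in the others, and fat genes were high in every pool (42280 to 87124). The part of these cell types in the members' ratios was not tested. Without the treated TNC-KO suprarenal pair the median member changed with Ca+AngII by -0.17. The gap between core and regulatory means ran from 0.529 to 0.669 over the 8 pools.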

How the data were processed

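RNA of 14 cell cultures and 8 aortic pools was hybridised singly to Affymetrix mouse arrays. The deposited intensity values, 1 per probe set (45101) and array, are on a linear scale, and their trimmed mean is alike on every array. The authors' tool was Affymetrix Expression Console, per the submitters' processing notes, and the version and the algorithm were not stated in the sources used here. Control probe sets (64), those with several symbols (932) and those without a name (9160) were left out, and each of 18193 genes was read by its brightest probe set (mean of the 22 arrays). In the cells, genes whose signal reached the array's 30th percentile on at least 3 arrays (15534 genes) were fitted on the log2 scale with limma 3.58.1 in R 4.3.3 (lmFit and eBayes, 4 groups with 10 residual degrees of freedom, adjusted p under 0.05 over all tested genes, 95% intervals). The script was tested on simulated data. The p-values measure the spread between these cultures. Pools (1 array a group) were compared as log2 ratios without a test. A gene was kept if any pool placed it no lower than that array's 50th percentile (12684 genes). Promoters came from RefSeq (GRCm38.p6), by symbol. The precision is limited by the number of arrays.

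The members, gene lists and tests were chosen with earlier results of these data known. The genes named with values were the catalytic subunits, the largest called changes with groups that do not overlap, the extremes of range, the aortic extremes of 1 sign in 4 pairs, Psma8 and Psmb11, with up to 4 genes of each further list; genes whose probe sets disagree were named after their values were seen. Alternatives were quantile normalization, arrays centred on the median, no filter or a 50th percentile filter, the mean over all probe sets, log2(value + 32), trend and robust variances, single contrasts, each array or pair left out, and the replicate number as a block. Same-numbered cultures did not deviate together (r from -0.0158 to 0.0570 over 19 pairs of arrays), so the numbers were not taken as a pairing. An alternative without Psma8 and Psmb11 was chosen after seeing the data.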

Additional observations from a re-analysis of the deposited data

Results flagged for a closer look

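In 72 checks of a member within a cell group of 4 arrays, 2 arrays lay far from the other 3, where chance alone sets apart about 1 in 20. Psmb11 read 1.87 on the first array with both factors and 18.5 to 20.8 on the others, a gap of 0.95 of the group's whole range, at signals near background. Psmd6 read 5608 on the third array with both factors and 4945 to 5017 on the others, a gap of 0.885 of the range.

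In 17 members the TNF response differed between cells with and without TNC by the interaction test (limma, adjusted p under 0.05), and in each it was lower with TNC. Of all tested genes 9.01% were lower and 9.81% higher by this test, and of the 3491 genes as bright as most members 16% and 13.2%. In the core particle the differences were -0.24 (Psma1), -0.34 (Psma4), -0.53 (Psma5), -0.44 (Psma6), -0.49 (Psma7), -0.23 (Psmb3) and -0.61 (Psmb7). Among the ATPases they were -0.33 (Psmc1), -0.36 (Psmc3) and -0.35 (Psmc6). Among the other regulatory genes they were -0.37 (Psmd1), -0.36 (Psmd2), -0.63 (Psmd3), -0.36 (Psmd7), -0.36 (Psmd8) and -0.33 (Psmd12), and for the chaperone Psmd10 -1.03.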

How the results depend on the processing

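Direction held for the median member in every cell contrast and alternative that was run, while counts of called members moved. Counts are given in a fixed order: the TNF response without TNC, then that with TNC, the TNC response without TNF, then that with TNF, both against none, and the interaction. The mean over all probe sets gave 17, 3, 6, 11, 8 and 9 called members, in place of 29, 6, 10, 18, 16 and 17. All counts here include Psma8, without which the third and the fifth of the latter are 9 and 15. It also moved the median to 0.27 for TNF without TNC and -0.20 for the interaction, and the core minus regulatory gap to 0.15 with TNF and 0.00797 with both. Signs turned under it for Psmb1 (-0.13), Psmc2 (-0.11), Psmd13 (-0.25) and Psmd2 (-0.029) in TNF without TNC. They also turned for Psmc6 (-0.10), Psmb8 (-0.12), Rad23b (-0.069) and Ubqln2 (0.17) in TNC without TNF, and for Psmc2 (0.10), Psmd2 (0.62) and Rad23b (-0.20) in TNC with TNF. In both against none they turned for Psmc6 (-0.074), Psmd11 (-0.14) and Rad23b (-0.28), and in the interaction for Psmc1 (0.68) and Psmd2 (0.49). Arrays centred on the median gave 2 calls for TNF with TNC, 19 for TNC without TNF, 3 for TNC with TNF and 25 for both. Medians were then 0.43 for TNF without TNC, 0.092 for TNF with TNC (0.055 as deposited), 0.25 for TNC without TNF, -0.073 for TNC with TNF, 0.32 for both and -0.40 for the interaction, and -0.02 for TNC-KO against wild type in the aorta. Quantile normalization gave 3 calls and a median of 0.019 for TNF with TNC, log2(value + 32) an interaction median of -0.28, and single contrasts 2 calls for TNF with TNC and 11 for TNC with TNF (the interaction could not be fitted that way). The cause of these moves was not tested. No filter, the 50th percentile filter and trend with robust variances kept every such count within 1.5 times, and so did leaving out Psma8 and Psmb11, which was chosen after seeing the data.

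With the replicate number as a block, 28, 4, 9, 15, 14 and 16 members were called, so the pairing moved no count by over 1.5 times. Leaving out 1 array at a time, the counts ranged from 24 to 29, 2 to 6, 7 to 11, 12 to 19, 12 to 15 and 14 to 22. The medians ranged from 0.30 to 0.33, 0.04 to 0.06, 0.05 to 0.10, -0.18 to -0.15, 0.09 to 0.14 and -0.34 to -0.29. Leaving out 1 pair of pools, the aortic medians ranged from -0.17 to -0.10 (Ca+AngII), 0.01 to 0.03 (genotype) and -0.23 to -0.16 (segment). Under every alternative 13 of the 29 rises with TNF kept their call, 7 of the 17 interactions and 1 of the 18 falls with TNC on TNF (Psma7).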

Other observations

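Protein quality control genes, which handle misfolded proteins beside the proteasome, were mostly lower where TNC had been given. Some were lower without it too: with TNF alone 3 of 7 fell and 2 rose, beside 20.3% and 14.3% of all genes, with Hspb1 at -1.21. With TNC alone 4 of 7 fell and 0 rose (limma, adjusted p under 0.05), while 15.7% of all genes were called lower and 16.1% higher. The inducible heat shock chaperones Hspa1b and Hspa1a fell by 1.80 and 1.60 on the log2 scale, Hspb1, a small heat shock protein, by 0.87 and the cochaperone Bag3 by 0.54. With both factors against none 5 of 7 fell and 1 rose, where 22.5% of all genes were called lower and 20.7% higher. The 1 that rose was Sqstm1, a receptor that links ubiquitin to autophagy, at 0.91. Genes of the oxidative response differed among themselves with both factors, Hmox1 at 1.77 and Srxn1 at 1.05 but Nqo1 at -0.47. Of 5 core assembly chaperones 0 were called with TNC alone (0 at an unadjusted p under 0.05 either). With TNC on TNF 2 were higher, Psmg1 (0.48) and Psmg2 (0.37), and 1 was lower, Pomp (-0.29). In that comparison 16.3% of all genes were called higher and 11.9% lower.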
